A study of Mus musculus with 9 samples.

Results

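Ligands and receptors of axon guidance were measured by RNA-seq in T15, a Smarcb1-negative mouse cell line of peripheral T-cell lymphoma (PTCL). The members were the protein-coding genes of the semaphorin, plexin, ephrin, Eph, netrin and Unc5 families by symbol, with the neuropilins, Slits, Robos and Dcc added by name, which gave 70 genes of the 35288 in the table, 36 of them ligands and 34 receptors in 12 families. Netrin 3 was not analysed here, and Unc50 and Unc5cl, which share only the prefix, were left out. The 9 libraries fall into 3 groups of 3: T15 control cells, T15 cells given SAHA (vorinostat, an inhibitor of histone deacetylases) at 1 µM during 72 h, and Smarcb1-RE cells. The last carried a lentiviral vector with a Smarcb1 cDNA under a doxycycline (Dox)-inducible promoter, were selected with G418 and received 0.5 µg/µl Dox for 72 h. The study's text calls the control cells of this experiment untreated, but it also describes an empty vector with Dox for the re-expression system. GEO's labels mention vehicle treatment beside SAHA, and a control plasmid beside re-expression, and leave unsaid which of these applied to the 3 control libraries. Transduction, G418 and Dox therefore cannot be told apart from Smarcb1 itself in the Smarcb1-RE comparison, and the clone or clones behind these libraries are not named in the sources used here. All groups share a single Smarcb1-negative line, so the replicates, called biological in the methods, are not separate tumors. The study describes strong apoptosis, with most cells dead, at the SAHA concentration used here. After re-expression it describes slower growth, with viability and cell cycle unaffected. The share of dying cells in the sequenced cultures is not given in the sources used here. The part of cell death or slower growth in the values below was not tested.

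Axon guidance cues steer growing nerve fibers by attraction and repulsion, and the same families act in blood vessels and immune cells. Semaphorins signal through plexins, with neuropilins as co-receptors for most secreted class 3 semaphorins. Ephrin-A ligands are tethered to the membrane by a lipid anchor and ephrin-B ligands span it, both binding Eph receptor tyrosine kinases on the neighboring cell, while netrins bind Dcc and Unc5 receptors and Slits bind Robo receptors. In T cells, Sema4d and Sema4a are known as surface semaphorins with roles in costimulation, Ephb6 is an Eph receptor without kinase activity found on thymocytes and T cells, and Nrp1 marks many regulatory T cells in the mouse.

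The targeted gene Smarcb1, a core subunit of the SWI/SNF chromatin remodeling complex, had 2, 5 and 8 counts in the control libraries, 7, 13 and 3 counts with SAHA, and 151, 147 and 142 counts in the Smarcb1-RE libraries. Its log2 fold change was 4.89 (SE 0.36) in Smarcb1-RE cells and 0.66 (SE 0.52, adjusted p = 0.285 in edgeR's quasi-likelihood test) under SAHA. Of 10 T-cell markers 8 passed the filter on low counts, with a summed level of 2972 to 3197 CPM (counts scaled to a common library total) in control, 3179 to 3228 in SAHA and 3914 to 3953 in Smarcb1-RE libraries. Ptprc alone averaged 640.8 CPM in control, 1006.4 CPM in SAHA and 1640.5 CPM in Smarcb1-RE libraries, so the sum does not describe the list as a whole. Under SAHA Ptprc and Cd3g were higher than in control, and Cd3d, Lat, Zap70 and Trbc2 were lower. In Smarcb1-RE cells Ptprc and Lck were higher than in control, and Cd3e, Cd3g, Lat and Trbc2 were lower. Cd2 (highest count 3) and Thy1 (highest count 6) were close to 0. Control replicate 1 stood apart, at a chi-square per gene of 13.4 and 15.0 against the other control libraries, compared with 2.12 to 4.69 for the other pairs of replicates.

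Only 34 of the 70 members passed the filter on low counts, 21 ligands and 13 receptors, and the remaining 36 had no more than 13 counts in any library. Of the untested members 7 had no count in any library and 28 never exceeded 3 counts, which is the smallest number taken as detectable and corresponds to 0.120 to 0.144 CPM by unscaled library total. Ephb6 was the most abundant member per length in control cells, at 19.6 ± 1.19 RPKM (CPM per kilobase of exon; SD, n = 3). It was followed by the transmembrane semaphorin Sema4b at 7.79 ± 0.70 RPKM and by Sema6b at 5.43 ± 0.39 RPKM, and these 3 did not overlap in their libraries. The next members in the order, Plxnb2 (3.57 ± 0.29 RPKM), Nrp2 (3.33 ± 0.48 RPKM), Sema4d (2.94 ± 0.46 RPKM) and Plxna3 (2.27 ± 0.24 RPKM), could not be separated from their neighbors beyond the spread of their libraries. Under SAHA, Ephb6 (35.7 ± 2.17 RPKM) was followed by Plxna3 (10.7 ± 0.99 RPKM), and in Smarcb1-RE cells Nrp2 (26.3 ± 0.35 RPKM) came before Ephb6 (14.7 ± 0.26 RPKM) and Sema6b (12.3 ± 0.58 RPKM).

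**Figure D1:**
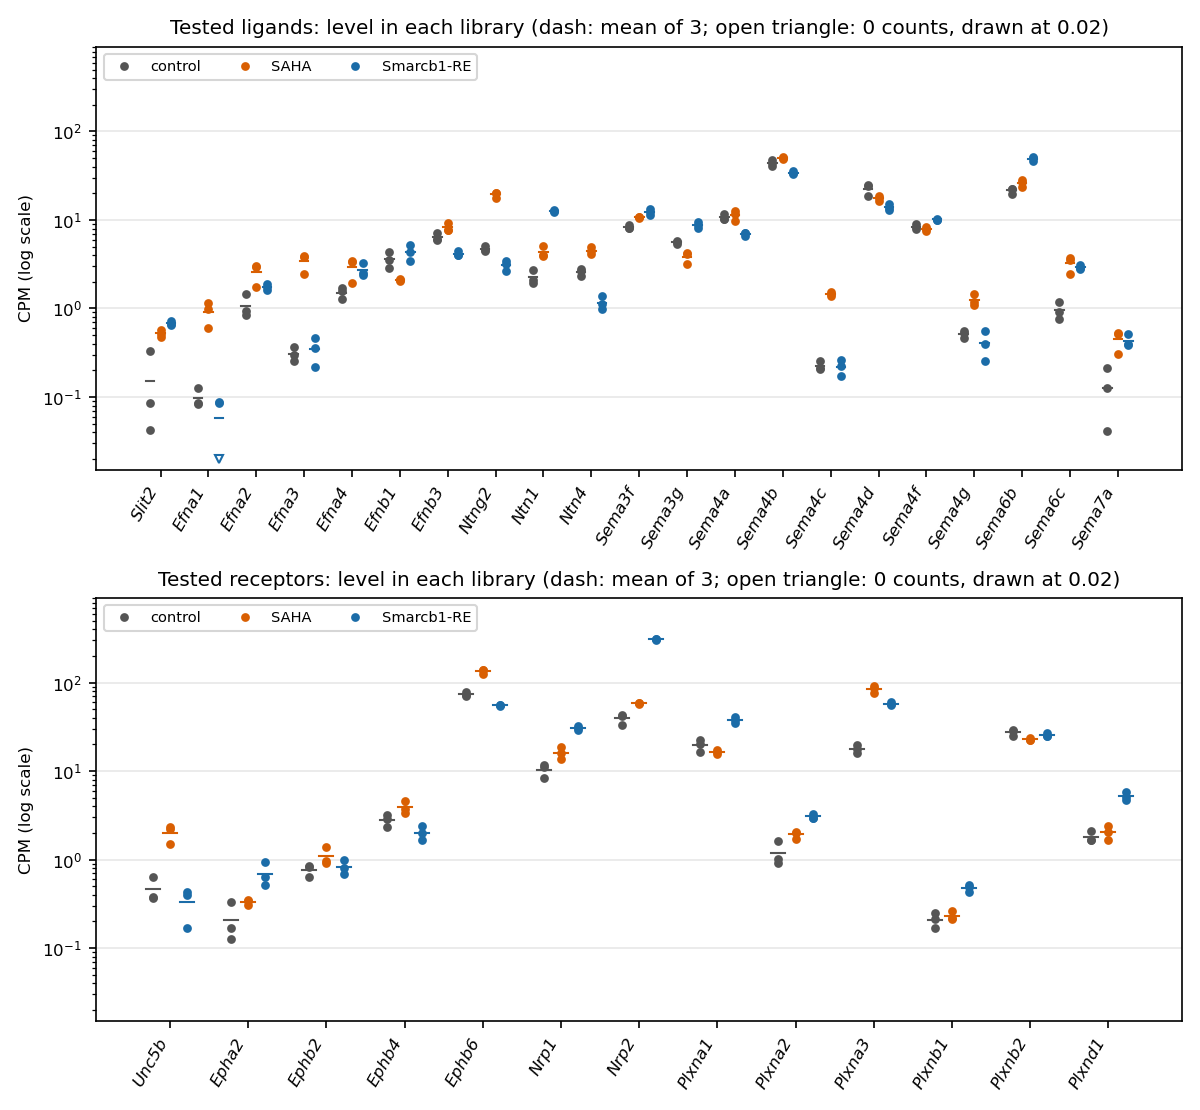
Level of the 34 tested members in each of the 9 libraries, as CPM on a log axis, ligands above and receptors below; points are libraries, dashes are means of 3, and an open triangle marks a library with 0 counts, drawn at 0.02 CPM. Nrp2 reaches 307 to 315 CPM in the Smarcb1-RE libraries, above every other tested member in any library.

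In SAHA-treated cells the ephrins Efna3 and Efna1, the semaphorin Sema4c, the plexin Plxna3, the netrin receptor Unc5b and the netrin-G ligand Ntng2 had the largest rises among the tested members, and Efnb1 and Sema3g the largest falls. Of the 34 tested members 23 were higher and 5 lower than in control (adjusted p under 0.05, edgeR's quasi-likelihood test over all genes), where 32.6% of the 13697 tested genes were higher and 34.3% lower. At least 2-fold, 11 members were higher and 0 lower, against 9.85% and 2.36% of all tested genes. The median log2 fold change of the tested members was 0.64, beside 0.0027 over all tested genes. By role, 16 of 21 tested ligands were higher and 3 lower, and 7 of 13 tested receptors were higher and 2 lower. Efna1, Efna3 and Sema4c passed the filter only through the SAHA libraries, so they had to differ, and Sema7a needed libraries of both treated groups to pass. Efna1, Efna3, Sema4c and Sema7a count among the 16 higher ligands and the 11 members higher at least 2-fold. Over the 28 tested members that would have passed with any 1 group left out, a count chosen after seeing the data, 19 were higher and 5 lower. At least 2-fold, 7 of these 28 were higher and 0 lower, and their median log2 fold change was 0.53.

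Among the tested members the leading rises in Smarcb1-RE cells were those of Nrp2, the netrin Ntn1, Slit2, Sema7a, Epha2 and Plxna3, and the leading falls those of Ntn4, Sema4d, Sema4a and Efnb3. Here 18 of the 34 tested members were higher and 8 lower than in control, beside 39.2% of all tested genes higher and 38.6% lower. With at least a 2-fold change, 12 members were higher and 1 lower, against backgrounds of 16.9% and 6.78%. Tested members had a median log2 fold change of 0.42, beside 0.014 over all tested genes. Of the tested ligands 10 were higher and 6 lower, and of the tested receptors 8 were higher and 2 lower. Epha2 and Plxnb1 passed the filter only through the Smarcb1-RE libraries, and over the 28 members that did not depend on 1 group 15 were higher and 8 lower. At least 2-fold, 9 of these 28 were higher and 1 lower, and their median log2 fold change was 0.42.

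Both comparisons use the same 3 control libraries, so their values are set side by side and no overlap between them is read. Measured directly against the SAHA libraries, 14 members were higher and 14 lower in Smarcb1-RE cells, beside 37.8% and 36.8% of all tested genes. In that count 8 of 13 tested receptors were higher and 4 lower, and 6 of 21 tested ligands were higher and 10 lower. Epha2 and Plxnb1, among the 8 higher receptors, had passed the filter only through the Smarcb1-RE libraries. Efna1, Efna3 and Sema4c, among the 10 lower ligands, had passed it only through the SAHA libraries. Over the 28 members that did not depend on 1 group, 12 were higher and 11 lower. The difference between the roles was not tested. Scaling to library totals in place of TMM factors moved the median change over all tested genes, on the log2 scale, in Smarcb1-RE against control from 0.014 to 0.17, and the members then counted 18 higher and 7 lower, with Ephb4 as the call lost. Without control replicate 1 the counts were 21 higher and 5 lower under SAHA, and 17 higher and 8 lower in Smarcb1-RE cells. Each value given with an SE is a log2 fold change. In bulk RNA, fewer cells of a kind and less RNA per cell cannot be told apart.

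**Figure D2:**
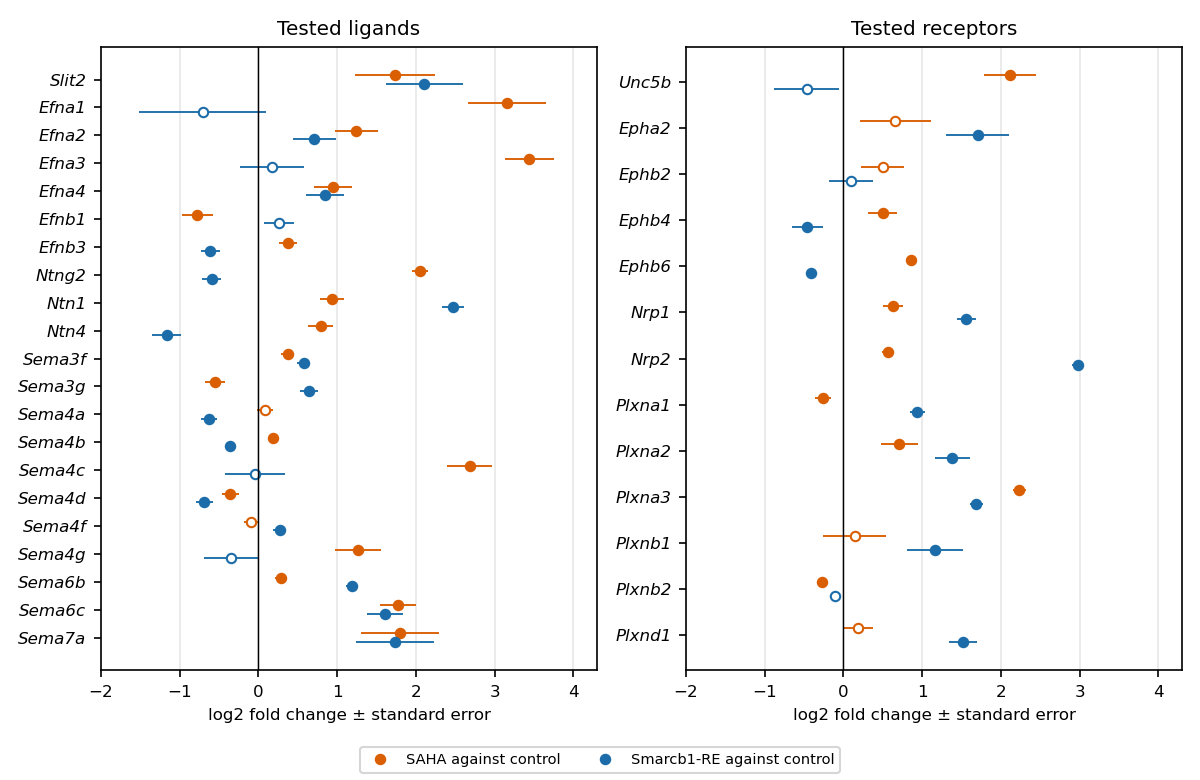
log2 fold change against control with its standard error for the 21 tested ligands (left) and 13 tested receptors (right), under SAHA in orange and in Smarcb1-RE cells in blue; filled points passed an adjusted p of 0.05. Efna3 and Efna1 lie farthest to the right under SAHA at 3.44 and 3.15, and Nrp2 in Smarcb1-RE cells at 2.98.

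The semaphorins, with 20 members of which 11 were tested, had 7 members higher and 2 lower under SAHA, beside 32.6% and 34.3% of all tested genes. In Smarcb1-RE cells 6 were higher and 3 lower, beside 39.2% and 38.6% of all tested genes. Sema4c, among the 7 higher under SAHA, had passed the filter only through the SAHA libraries. Sema7a, among the higher ones in both comparisons, had needed libraries of both treated groups to pass. Sema4b, a transmembrane class 4 semaphorin, had 40.3, 43.5 and 48.1 CPM in control, 49.9, 48.5 and 52.1 CPM in SAHA and 34.2, 35.9 and 32.8 CPM in Smarcb1-RE libraries. All SAHA libraries lay above and all Smarcb1-RE libraries below control, by log2 fold changes of 0.19 (SE 0.06, adjusted p = 0.0172) and -0.36 (SE 0.06, adjusted p = 0.000225). The rise under SAHA was small and lost its call without SAHA replicate 3 or without control replicate 1 or 2 (log2 fold change 0.13 to 0.18). For Sema6b, a class 6 transmembrane semaphorin that binds A-type plexins, control libraries held 19.8, 22.5 and 22.4 CPM, SAHA libraries 23.8, 28.4 and 26.9 CPM and Smarcb1-RE libraries 50.8, 49.6 and 46.4 CPM. Its log2 fold change was 0.29 (SE 0.07, adjusted p = 0.00436) under SAHA and 1.18 (SE 0.07, adjusted p = 9.02e-09) in Smarcb1-RE cells, and the 3 groups did not overlap. Sema6c, of the same class, rose under both treatments, by 1.77 (SE 0.23) and 1.61 (SE 0.23) on the log2 scale.

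Sema4d (CD100), which T cells display and shed, stood at 18.5, 24.7 and 24.5 CPM in control, 18.7, 17.8 and 16.3 CPM in SAHA and 13.7, 13.1 and 15.2 CPM in Smarcb1-RE libraries. Control replicate 1 was the lowest control library and overlapped the SAHA libraries, while all Smarcb1-RE libraries lay below every other library. The log2 fold changes were -0.36 (SE 0.11, adjusted p = 0.00914) and -0.69 (SE 0.11, adjusted p = 6.96e-05). Sema4a, another class 4 semaphorin with a role in T-cell costimulation, had 10.2, 11.6 and 10.4 CPM in control and 6.57, 7.12 and 7.11 CPM in Smarcb1-RE libraries, a log2 fold change of -0.63 (SE 0.10, adjusted p = 0.000102). Its SAHA libraries, at 12.6, 9.85 and 11.6 CPM, overlapped the control libraries (log2 fold change 0.08, SE 0.10, adjusted p = 0.463).

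Sema4c showed the largest change of the 11 tested semaphorins under SAHA, from 0.212, 0.253 and 0.206 CPM in control to 1.47, 1.37 and 1.55 CPM, whereas the Smarcb1-RE libraries held 0.171, 0.221 and 0.259 CPM. Only the SAHA libraries stood apart, with a log2 fold change of 2.68 (SE 0.29, adjusted p = 3.41e-06), beside -0.05 (SE 0.38, adjusted p = 0.937) in Smarcb1-RE cells, where the sign of this uncalled value turned when library totals were used (0.11). Sema4g, a related class 4 member, also rose under SAHA by 1.26 (SE 0.29) and had -0.35 (SE 0.34) in Smarcb1-RE cells. Sema7a, the semaphorin with a lipid anchor, was scarce at 0.212, 0.127 and 0.0411 CPM in control, 0.303, 0.530 and 0.517 CPM in SAHA and 0.512, 0.398 and 0.388 CPM in Smarcb1-RE libraries. Both treated groups lay above control, by 1.79 (SE 0.49, adjusted p = 0.00629) and 1.74 (SE 0.50, adjusted p = 0.00631), a difference resting on few reads. Sema4f, a further class 4 member, had -0.09 (SE 0.08) under SAHA, which was not called, and rose by 0.27 (SE 0.08) in Smarcb1-RE cells.

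The secreted class 3 semaphorins were represented by Sema3f and Sema3g, while Sema3a, Sema3b, Sema3c, Sema3d and Sema3e never exceeded 4 counts. Sema3f, a ligand of Nrp2, rose in both treated groups, from 8.16, 8.70 and 8.02 CPM in control to 10.7, 10.9 and 10.6 CPM in SAHA and 12.3, 11.4 and 13.4 CPM in Smarcb1-RE libraries. Sema3g, which also binds Nrp2, went in opposite directions, with 5.40, 5.70 and 5.84 CPM in control, 3.2, 4.11 and 4.22 CPM in SAHA and 9.47, 8.85 and 8.19 CPM in Smarcb1-RE libraries. No library of one group overlapped another for Sema3g, and its log2 fold change was -0.55 (SE 0.12, adjusted p = 0.00156) under SAHA, 0.65 (SE 0.11, adjusted p = 0.000197) in Smarcb1-RE cells and 1.20 (SE 0.12, adjusted p = 1.19e-06) between the treated groups.

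The neuropilins and A-type plexins, which form the receptor complexes for class 3 semaphorins, included Nrp2, the member with the highest level in Smarcb1-RE cells. The sequences before the start sites of Nrp2 (62703285-62818695 on chromosome 1, plus strand), Nrp1 (128358604-128503363 on chromosome 8, plus strand) and Plxna3 (74329066-74344689 on chromosome X, plus strand) are shown as examples. Gene coordinates are those of GENCODE M21 on GRCm38. The examples were chosen with their values known, and Plxna2, which also rose in both treated groups, is not shown. They are RefSeq windows of build GRCm38.p6 on the plus strand, 5′ to 3′, and capitals mark each GC box, read as GGGCGG or its reverse complement CCGCCC. The window of Nrp2 was shortened to the 218 bases without annotated exon, and that of Nrp1 lies in an intron of the longer GENCODE model.
Nrp2 (chr1:62703067-62703284): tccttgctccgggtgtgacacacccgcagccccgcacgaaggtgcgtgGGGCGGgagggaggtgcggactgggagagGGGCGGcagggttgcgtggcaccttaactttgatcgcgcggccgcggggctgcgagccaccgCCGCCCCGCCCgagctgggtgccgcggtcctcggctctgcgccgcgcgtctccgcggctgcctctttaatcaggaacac
Nrp1 (chr8:128358823-128359072): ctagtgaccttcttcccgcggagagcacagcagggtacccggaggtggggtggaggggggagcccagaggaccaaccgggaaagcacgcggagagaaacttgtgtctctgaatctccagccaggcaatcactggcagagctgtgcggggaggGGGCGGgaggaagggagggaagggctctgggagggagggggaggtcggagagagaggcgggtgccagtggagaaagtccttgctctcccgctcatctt
Plxna3 (chrX:74328816-74329065): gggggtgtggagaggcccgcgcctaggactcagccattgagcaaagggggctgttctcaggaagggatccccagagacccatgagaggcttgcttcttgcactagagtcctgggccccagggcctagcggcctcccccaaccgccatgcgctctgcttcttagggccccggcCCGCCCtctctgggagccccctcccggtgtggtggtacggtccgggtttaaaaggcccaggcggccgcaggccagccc
Nrp2 held 4 GC boxes in the printed stretch, the last of which overlap each other, and 28 CpG pairs, Nrp1 1 and 11, and Plxna3 1 and 12.

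Nrp2, the co-receptor bound by Sema3f and Sema3g, had 32.9, 42.5 and 43.0 CPM in control, 58.3, 59.5 and 57.9 CPM in SAHA and 307, 311 and 315 CPM in Smarcb1-RE libraries. The 3 groups did not overlap, and control replicate 1 was the lowest library. This was a 7.88-fold higher level in Smarcb1-RE cells, with a log2 fold change of 2.98 (SE 0.08, adjusted p = 8.8e-12), and a 1.48-fold higher level under SAHA (log2 fold change 0.57, SE 0.08, adjusted p = 3.4e-05). Directly compared, Smarcb1-RE cells exceeded SAHA-treated cells by 2.41 (SE 0.07, adjusted p = 3.07e-11) on the log2 scale. Nrp1 followed in the same order at a lower level, with 8.37, 11.1 and 11.7 CPM in control, 13.6, 15.9 and 18.6 CPM in SAHA and 32.3, 29.1 and 30.4 CPM in Smarcb1-RE libraries. Its log2 fold changes were 0.62 (SE 0.13, adjusted p = 0.000794) and 1.56 (SE 0.12, adjusted p = 9.1e-08). Neuropilins are also made by endothelial cells, whose markers were counted beside them: of 6 endothelial markers only Pecam1, which T cells also express, was tested and fell in both comparisons, Emcn and Cldn5 were at 0 in all libraries, and Cdh5, Kdr and Tek never exceeded 3 counts. The summed level of that list was 146 to 154 CPM in control, 106 to 121 CPM in SAHA and 129 to 131 CPM in Smarcb1-RE libraries.

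Plxna3, a signaling receptor that pairs with neuropilins, rose most under SAHA, from 18.0, 16.0 and 19.7 CPM in control to 75.8, 91.1 and 85.9 CPM, and reached 55.9, 59.9 and 56.9 CPM in Smarcb1-RE libraries. The groups did not overlap, with log2 fold changes of 2.23 (SE 0.08, adjusted p = 1.01e-09) and 1.68 (SE 0.08, adjusted p = 1.37e-09), and the Smarcb1-RE level was below the SAHA level, at -0.55 (SE 0.07, adjusted p = 1.47e-05) on the log2 scale. Plxna1, its paralog, had 16.3, 20.4 and 22.5 CPM in control, 17.5, 16.3 and 15.8 CPM in SAHA and 35.3, 40.4 and 38.0 CPM in Smarcb1-RE libraries. Its Smarcb1-RE libraries stood above all others (log2 fold change 0.94, SE 0.10, adjusted p = 1.3e-06), whereas the SAHA libraries overlapped control (log2 fold change -0.26, SE 0.10, adjusted p = 0.0403). That small fall under SAHA lost its call in 7 alternatives, among them without SAHA replicate 2 or 3 and without control replicate 2 or 3, at values of -0.26 to -0.16. Plxna2 rose in both groups by 0.71 (SE 0.23) and 1.38 (SE 0.22), and Plxna4 never exceeded 1 count.

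**Figure D3:**
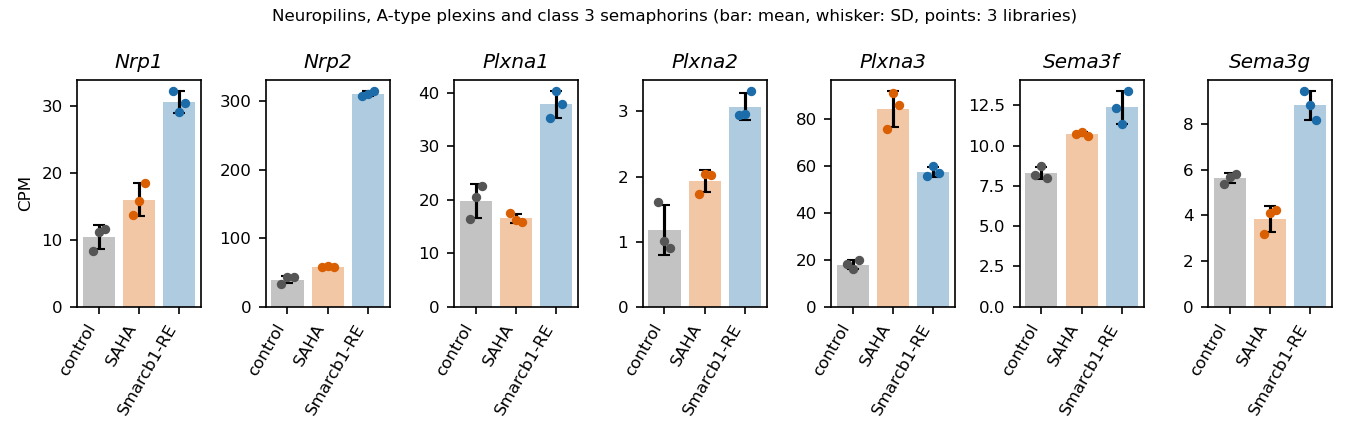
CPM of the neuropilins, the A-type plexins and the class 3 semaphorins that were tested, each panel on its own linear axis from 0; bars are means, whiskers SD and points the 3 libraries of a group. In the Nrp2 panel the Smarcb1-RE libraries stand at 307 to 315 CPM, above the SAHA libraries at 57.9 to 59.5 CPM and the control libraries at 32.9 to 43.0 CPM.

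Outside the A-type, Plxnd1, a receptor for Sema3e known from vessels and thymocytes, had 2.08, 1.65 and 1.69 CPM in control, 1.69, 2.03 and 2.41 CPM in SAHA and 4.69, 5.80 and 5.04 CPM in Smarcb1-RE libraries. Only the Smarcb1-RE libraries stood above control, at a log2 fold change of 1.52 (SE 0.18, adjusted p = 4.7e-06), beside 0.18 (SE 0.19, adjusted p = 0.425) under SAHA. Plxnb2, a broadly expressed receptor for class 4 semaphorins, had 25.0, 28.3 and 29.2 CPM in control, 22.7, 22.4 and 23.5 CPM in SAHA and 24.9, 26.9 and 25.0 CPM in Smarcb1-RE libraries. The SAHA libraries lay below control (log2 fold change -0.27, SE 0.07, adjusted p = 0.00272), and the Smarcb1-RE value of -0.11 (SE 0.06, adjusted p = 0.153) became a call only without control replicate 1 (-0.18, adjusted p = 0.0101). Plxnb1, the receptor of Sema4d, was scarce and rose in Smarcb1-RE cells by 1.16 (SE 0.35), with 0.14 (SE 0.40) under SAHA, and Plxnb3 and Plxnc1 never exceeded 1 count. In all, 5 of the 6 tested plexins were higher and 0 lower in Smarcb1-RE cells, and 2 were higher and 2 lower under SAHA, beside 39.2% and 38.6%, and 32.6% and 34.3%, of all tested genes. Plxnb1, among the 5, had passed the filter only through the Smarcb1-RE libraries.

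The ephrin-A ligands, which bind EphA receptors, were 4 tested members of 5. All 4 of these were higher under SAHA, beside 32.6% of all tested genes. Efna1 and Efna3 entered the test only through the SAHA libraries, so only Efna2 and Efna4 were free to go either way. Efna1, Efna3 and Efna4 lie side by side on the minus strand of chromosome 3 (89271733-89281142, 89313899-89322965 and 89333390-89338028 in GENCODE M21, GRCm38). The sequences before their starts are shown since neighbors of one cluster differ in level and in response. They are RefSeq windows of build GRCm38.p6 on the minus strand, 5′ to 3′, with GC boxes in capitals as above, and those of Efna1 and Efna3 lie in introns of the longer GENCODE models.
Efna1 (chr3:89279646-89279895): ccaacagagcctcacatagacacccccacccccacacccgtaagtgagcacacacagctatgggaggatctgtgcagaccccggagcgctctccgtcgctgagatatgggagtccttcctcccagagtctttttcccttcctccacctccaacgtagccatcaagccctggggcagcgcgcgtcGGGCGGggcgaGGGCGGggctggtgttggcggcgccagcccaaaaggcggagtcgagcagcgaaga
Efna3 (chr3:89321769-89322018): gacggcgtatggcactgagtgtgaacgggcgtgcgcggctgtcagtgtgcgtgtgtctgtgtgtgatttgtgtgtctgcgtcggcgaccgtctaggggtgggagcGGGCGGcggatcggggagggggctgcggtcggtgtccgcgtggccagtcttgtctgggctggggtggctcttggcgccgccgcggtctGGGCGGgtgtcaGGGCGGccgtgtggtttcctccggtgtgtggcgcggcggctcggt
Efna4 (chr3:89338029-89338278): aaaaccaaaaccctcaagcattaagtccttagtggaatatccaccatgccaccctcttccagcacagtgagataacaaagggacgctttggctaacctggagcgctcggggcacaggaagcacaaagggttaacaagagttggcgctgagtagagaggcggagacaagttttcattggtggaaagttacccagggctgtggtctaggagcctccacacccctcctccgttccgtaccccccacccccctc
Efna3 held 3 GC boxes and 31 CpG pairs, Efna1 2 and 18, and Efna4 0 and 7.

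Efna3 had 0.255, 0.296 and 0.370 CPM in control, 2.47, 3.80 and 3.92 CPM in SAHA and 0.469, 0.354 and 0.215 CPM in Smarcb1-RE libraries. The SAHA libraries stood apart from the other 6, which overlapped, and the log2 fold change was 3.44 (SE 0.31, adjusted p = 8.13e-07) under SAHA and 0.17 (SE 0.41, adjusted p = 0.718) in Smarcb1-RE cells. Efna1 was measured by a handful of reads outside SAHA, with 0.0850, 0.127 and 0.0822 CPM in control, 0.606, 1.15 and 0.990 CPM in SAHA and 0.0853, 0.0885 and 0 CPM in Smarcb1-RE libraries. Summed over the libraries, 63 counts under SAHA against 7 in control gave a ratio of 9.33 after scaling (exact 95% interval 4.27 to 24.2, counting error only), and the fitted log2 fold change was 3.15 (SE 0.50, adjusted p = 0.000101). In Smarcb1-RE cells, with 4 counts in all, it was -0.71 (SE 0.81, adjusted p = 0.437).

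Efna4 was present in all groups, at 1.7, 1.56 and 1.27 CPM in control, 1.95, 3.45 and 3.36 CPM in SAHA and 2.39, 3.27 and 2.50 CPM in Smarcb1-RE libraries. It lay above control in both, by 0.95 (SE 0.24, adjusted p = 0.00422) and 0.84 (SE 0.25, adjusted p = 0.00702). Efna2, located on another chromosome, had 0.850, 0.929 and 1.44 CPM in control, 1.73, 3 and 2.93 CPM in SAHA and 1.62, 1.77 and 1.90 CPM in Smarcb1-RE libraries. Its rise under SAHA was 1.24 (SE 0.27, adjusted p = 0.00128), and that in Smarcb1-RE cells, 0.71 (SE 0.28, adjusted p = 0.0329), lost its call without control replicate 1 or 2 or Smarcb1-RE replicate 2 or 3 (0.56 to 0.70). SAHA replicate 1 was the lowest of the SAHA libraries for each of these 4 ligands. Efna5 had 1 count in a single library.

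The neighborhood of the ephrin-A cluster was described after its values were seen. Within 150 kb of the Efna3 start lay 24 protein-coding genes, and of the 20 tested ones other than the ephrins 11 were higher and 6 lower under SAHA (32.6% and 34.3% of all tested genes), with a median log2 fold change of 0.19 and a highest value of 1.39. In Smarcb1-RE cells 5 of these 20 were higher and 9 lower (39.2% and 38.6% of all tested genes), with a median of -0.04. Efna1 starts 41.8 kb to one side of Efna3 and Efna4 15.1 kb to the other, and none of the 20 neighbors reached the SAHA values of Efna1 or Efna3.

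**Figure D4:**
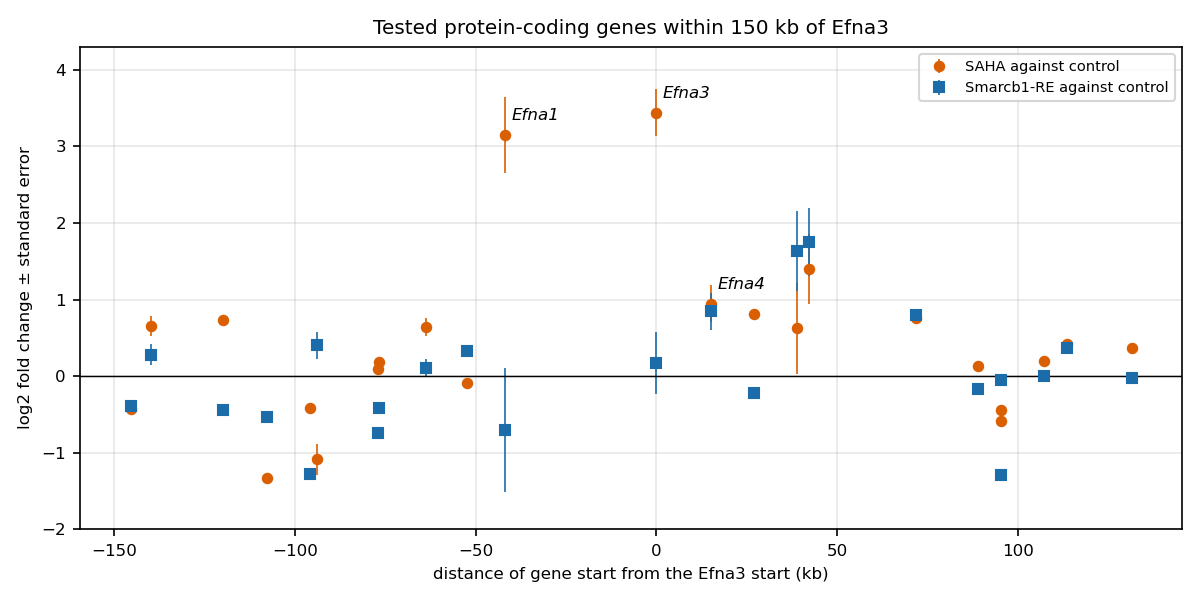
log2 fold change against control with its standard error for the tested protein-coding genes within 150 kb of Efna3, by distance of the gene start in kb (SAHA, orange circles; Smarcb1-RE, blue squares). Efna1 and Efna3 stand at 3.15 and 3.44 under SAHA, and no other gene in the window exceeds 1.39 in that comparison.

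Of the transmembrane ephrin-B ligands, Efnb3 had 5.91, 6.04 and 7.11 CPM in control, 9.31, 7.69 and 7.70 CPM in SAHA and 4.01, 4.03 and 4.44 CPM in Smarcb1-RE libraries. SAHA libraries lay above control (log2 fold change 0.37, SE 0.11, adjusted p = 0.0118) and Smarcb1-RE libraries below (log2 fold change -0.61, SE 0.12, adjusted p = 0.000536), although the former call was lost without SAHA replicate 1 (0.27). Efnb1, which lies on chromosome X, fell under SAHA from 2.85, 3.55 and 4.40 CPM to 2.16, 2.12 and 2.02 CPM, a log2 fold change of -0.77 (SE 0.20, adjusted p = 0.00439). Its Smarcb1-RE libraries, at 4.35, 5.18 and 3.45 CPM, overlapped control (log2 fold change 0.26, SE 0.19, adjusted p = 0.217). Efnb2 had 3 to 10 counts per library and was not tested.

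The Eph receptors, the kinases that read ephrins, were mostly too low to test: 9 EphA members gave 1 tested gene and 5 EphB members gave 3. Ephb6, the kinase-inactive member and the most abundant of all 70 in control cells, had 71.0, 71.9 and 79.2 CPM in control, 125, 140 and 138 CPM in SAHA and 55.6, 54.5 and 56.5 CPM in Smarcb1-RE libraries. It rose under SAHA (log2 fold change 0.86, SE 0.05, adjusted p = 3.6e-08) and fell in Smarcb1-RE cells (log2 fold change -0.41, SE 0.06, adjusted p = 2.12e-05), with no overlap between groups, and the treated groups differed by -1.28 (SE 0.06, adjusted p = 5.71e-10). Ephb4, a receptor of Efnb2, followed at a lower level, with 2.85, 2.32 and 3.17 CPM in control, 3.77, 3.36 and 4.65 CPM in SAHA and 2, 1.68 and 2.37 CPM in Smarcb1-RE libraries. Its log2 fold changes of 0.50 (SE 0.19, adjusted p = 0.0323) and -0.46 (SE 0.20, adjusted p = 0.0497) lay close to the threshold, the Smarcb1-RE libraries overlapped control, and the calls were lost in 4 and 9 alternatives, among them without control replicate 1. Direct comparison of the treated groups gave -0.96 (SE 0.19, adjusted p = 0.000628). Ephb4 shares its locus with Zan on the opposite strand (mean count 21.8), and whether counting used the strand is not given in the sources used here.

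Epha2, a receptor of Efna1, was low at 0.170, 0.127 and 0.329 CPM in control, 0.346, 0.309 and 0.344 CPM in SAHA and 0.640, 0.929 and 0.517 CPM in Smarcb1-RE libraries. Only the Smarcb1-RE libraries lay above control, by 1.7 (SE 0.40, adjusted p = 0.00183), beside 0.66 (SE 0.45, adjusted p = 0.217) under SAHA. Ephb2 was called in neither comparison, at 0.50 (SE 0.27) and 0.10 (SE 0.28). Both genes lie on chromosome 4. Over 673 tested protein-coding genes there that reached a set minimum level, the median log2 fold change in Smarcb1-RE cells was 0.29. On the other autosomes the median by the same rule was -0.10. Epha2 and Ephb2 themselves lay below that minimum level, and the part of the chromosome in the Epha2 value was not tested. Epha3 and Epha5, which were not tested, never exceeded 7 and 8 counts.

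Netrins and their receptors responded unequally. Ntn1, the founding secreted netrin, had 2.08, 1.94 and 2.71 CPM in control, 3.90, 3.98 and 5.04 CPM in SAHA and 12.2, 12.8 and 12.5 CPM in Smarcb1-RE libraries. The groups did not overlap, with log2 fold changes of 0.93 (SE 0.15, adjusted p = 0.000126) and 2.47 (SE 0.14, adjusted p = 4.51e-09), the latter a 5.54-fold higher level. Ntn4, a netrin related to laminins, went opposite ways at 2.34, 2.79 and 2.67 CPM in control, 4.16, 4.90 and 4.43 CPM in SAHA and 1.11, 1.37 and 0.991 CPM in Smarcb1-RE libraries. It was higher under SAHA (log2 fold change 0.79, SE 0.16, adjusted p = 0.000789) and lower in Smarcb1-RE cells (log2 fold change -1.17, SE 0.18, adjusted p = 7.27e-05), a difference of -1.95 (SE 0.18, adjusted p = 4.77e-07) between them. Ntng2, a lipid-anchored netrin-G that binds a synaptic adhesion protein and not Dcc, showed the same opposition, with 4.55, 4.44 and 5.01 CPM in control, 17.8, 20.2 and 20.2 CPM in SAHA and 3.2, 3.41 and 2.67 CPM in Smarcb1-RE libraries. Its values were 2.05 (SE 0.10, adjusted p = 5.88e-09) and -0.59 (SE 0.12, adjusted p = 0.00058). Its partner Lrrc4 had no count in any library.

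On the receptor side Unc5b, which binds netrins and is also known as a dependence receptor, was the only tested member of 5, at 0.383, 0.634 and 0.370 CPM in control, 1.52, 2.21 and 2.32 CPM in SAHA and 0.171, 0.398 and 0.431 CPM in Smarcb1-RE libraries. The SAHA libraries stood above all others (log2 fold change 2.11, SE 0.33, adjusted p = 9.5e-05), and the Smarcb1-RE libraries overlapped control (log2 fold change -0.47, SE 0.41, adjusted p = 0.315). Dcc had 1 count in a single SAHA library, and Unc5c and Unc5d had none. Slit2 was the only tested Slit, at 0.0425, 0.0845 and 0.329 CPM in control, 0.519, 0.574 and 0.473 CPM in SAHA and 0.725, 0.664 and 0.646 CPM in Smarcb1-RE libraries. Both treated groups lay above control, by 1.73 (SE 0.51, adjusted p = 0.00888) and 2.11 (SE 0.49, adjusted p = 0.00154), and without control replicate 3, the highest control library, the values became 2.94 and 3.30. The 4 Robo receptors, the partners of Slits, were not tested and never exceeded 3 counts.

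Among the untested members, 2 had counts in both treated groups that differed from control beyond counting error, and they were singled out after their values were seen. Sema6a, a transmembrane class 6 semaphorin, had 12, 9 and 9 counts in control, 1, 1 and 0 counts with SAHA, and 2, 2 and 1 counts in Smarcb1-RE libraries. After scaling it was 14.5-fold lower under SAHA (exact 95% interval 3.67 to 125) and 5.81-fold lower in Smarcb1-RE cells (2.23 to 19.2). Sema5a, a semaphorin with thrombospondin repeats, had 1, 0 and 0 counts in control, 6, 3 and 8 counts with SAHA, and 7, 13 and 9 counts in Smarcb1-RE libraries, ratios of 17.6 (2.76 to 737) and 29.9 (4.97 to 1223). These intervals cover counting error only.

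A window of 250 bases before the RefSeq start was found for 60 of the 70 members, 30 of them tested. Where a gene had several starts, the most upstream was counted here. The sequences printed above came instead from the start with the fewest annotated exon bases, so the windows can differ. The GC box (GGGCGG on either strand) occurred in 43 of the 60 counted windows (71.7%), compared with 33.0% of the 27025 windows of all genes. Median GC content was 64.4% in the members and 52% in all genes, and the median number of CpG pairs was 16 and 6. The 30 tested members held a GC box in 80% and the 30 untested members in 63.3%. Windows were matched for 9785 of the 13697 tested genes, and 58.5% of those held a GC box. Their median GC content was 59.6% and their median number of CpG pairs 16, beside 64.6% and 16.5 in the tested members. The windows of all genes thus include many genes that were not tested, with fewer CpG pairs. The AP-1 motif TGANTCA (either strand) was present in 1.67% of member windows and 6.85% of all windows, TATAAA (either strand) in 3.33% and 13.0%, and the E-box CACGTG in 5% and 6.04%. In the windows of tested genes these 3 shares were 4.27%, 6.59% and 8.25%, and in those of tested members 3.33%, 3.33% and 0%. No searched motif contains another, and a match is a description of the window only.

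Downstream of the receptors, a list of 120 co-receptors, proteases, GTPase regulators, GTPases and effectors of the same pathways had 87 tested genes. Of these, 33 were higher and 17 lower under SAHA, and 36 higher and 31 lower in Smarcb1-RE cells, beside the background shares of all genes given above. With scaling to library totals the latter split became 44 higher and 24 lower. That scaling also moved the median log2 fold change of all tested genes from 0.014 to 0.17, and the background shares were not counted under it. Against SAHA, 28 were higher and 41 lower in Smarcb1-RE cells, and 36 higher and 34 lower with library totals, where the median of all tested genes moved from 0.017 to 0.18.

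Under SAHA the leading rises were those of Vav2, an exchange factor downstream of Eph receptors, and Dpysl5 (CRMP5), a collapsin response mediator. Vav2 had 0.340, 0.338 and 0.370 CPM in control, 1.86, 2.21 and 1.89 CPM in SAHA and 0.469, 0.221 and 0.517 CPM in Smarcb1-RE libraries, and only the SAHA libraries stood apart (log2 fold change 2.49, SE 0.29, adjusted p = 8.73e-06), through which alone it passed the filter. Dpysl5 rose in both groups, from 6.16, 6.72 and 6.99 CPM to 27.8, 29.6 and 30.6 CPM in SAHA and 13.4, 14.0 and 12.6 CPM in Smarcb1-RE libraries. The leading falls were those of the kinase Src, by -1.26 (SE 0.22, adjusted p = 0.000285) under SAHA and -2.05 (SE 0.24, adjusted p = 5.03e-06) in Smarcb1-RE cells, and of the Rap exchange factor Rapgef2, by -0.66 (SE 0.09, adjusted p = 2.11e-05) under SAHA. In Smarcb1-RE cells Rgs3, a regulator of G-protein signaling linked to ephrin-B reverse signaling, had 2.60, 2.48 and 2.80 CPM after 0.170, 0 and 0.123 CPM in control (log2 fold change 4.67, SE 0.48, adjusted p = 1.46e-06). Farp1, an exchange factor tied to semaphorin signaling, had 68 counts in Smarcb1-RE and 4 in control libraries, a ratio of 17.6 (exact 95% interval 6.55 to 66.3, counting error only). Rgs3 and Farp1 passed the filter only through the Smarcb1-RE libraries and so had to differ. Without control replicate 1 the value of Rgs3 was 5.27, and without control replicate 3 that of Farp1 was 5.2 in place of 4.01. Pak1, a kinase acting on the cytoskeleton, rose under SAHA (log2 fold change 1.23, SE 0.22, adjusted p = 0.000279) and fell in Smarcb1-RE cells (log2 fold change -2.17, SE 0.29, adjusted p = 1.64e-05).

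Markers of other cell types were counted beside the members. Of 8 neuronal markers 2 were tested and Gap43 had no count, and the summed level was 46.7 to 48.8 CPM in control, 144 to 149 CPM in SAHA and 41.0 to 42.7 CPM in Smarcb1-RE libraries, carried by Snap25. Snap25 had log2 fold changes of 1.75 (SE 0.04) under SAHA and -0.33 (SE 0.04) in Smarcb1-RE cells. Tubb3, also tested, was not called under SAHA (-0.04, SE 0.10) and rose in Smarcb1-RE cells (0.59, SE 0.10). Fibroblast markers (7, of which 2 tested) summed to 6.33 to 8.88 CPM in control, 6.80 to 7.06 CPM in SAHA and 66.4 to 68.6 CPM in Smarcb1-RE libraries, carried by Pdgfra, while Dcn and Lum never exceeded 2 counts. Col1a1, the other tested one, had 1, 5 and 0 counts in control and was called higher in both comparisons. Its log2 fold change was 3.34 (SE 0.56) under SAHA and 2.43 (SE 0.62) in Smarcb1-RE cells. Macrophage markers (6, of which 1 tested, Cd68) summed to 1.73 to 2.14 CPM in control, 5.71 to 7.4 CPM in SAHA and 1.72 to 1.88 CPM in Smarcb1-RE libraries, with Fcgr1 at 0. B-cell markers (5, of which 2 tested, Pax5 and Ms4a1) summed to 0.935 to 1.14 CPM in control, 1.24 to 1.86 CPM in SAHA and 7.25 to 7.96 CPM in Smarcb1-RE libraries. The part of these markers in the values of the guidance genes was not tested.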

How the data were processed

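Bulk RNA-seq was made from 3 control, 3 SAHA and 3 Smarcb1-RE libraries with a directional kit and single-end sequencing. The authors deposited a table of estimated counts per gene, not normalized, and the submitters' processing notes name Salmon 0.14.1 and GRCm38. The annotation release and the strand setting are not given in the sources used here. Totals ranged from 20900477 to 24941494 counts per library, which limits precision for members with few counts, and 0 columns of the table were unused.

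Estimated counts were rounded to whole numbers, and 99.3% of the identifiers matched GENCODE M21, which gave symbols and exon lengths. A single edgeR 4.0.16 quasi-likelihood model (R 4.3.3, TMM factors, filterByExpr with a count minimum of 10) was fitted to the 3 groups, with Benjamini-Hochberg adjustment over 13697 genes and a threshold of 0.05. SE is the log2 fold change divided by the root of the F statistic. CPM used TMM-scaled totals, and RPKM divided CPM by exon length. DESeq2 1.42.0, other scalings, filters and thresholds, separate fits, a replicate block and leaving out each library were alternatives. The fit was also run on simulated data, where far fewer genes were changed than were called here, and only genes above a minimum level. That run therefore does not check the calls of members with low counts. Values in every library were due for the 6 members per comparison with control and direction that had the largest called changes without overlap of libraries, for the 2 most abundant tested members of each family, for members called in opposite directions and for Smarcb1, and for the 2 partners per comparison and direction. Other tested members were added for completeness of their family. Members and gene lists were chosen with earlier results of these data known.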

Additional observations from a re-analysis of the deposited data

How the results depend on the processing

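Over the named members, 1172 of 1221 combinations of value and alternative kept their side of the threshold without a called value turning direction, 47 lost the call and 2 gained one, and over the named partners 319 of 321 did, with 1 lost and 1 gained. No value that was called under either setting reversed, whereas signs turned in some values called under neither, among them those of Sema4c, Plxnb2 and Efna3 in Smarcb1-RE cells and of Rgs3 and Farp1 under SAHA. Scaling, DESeq2 and dropping the low-count filter left every count of calls within 1.5 times; requiring at least 10 counts in every library, which tests fewer genes, left 9 members lower in Smarcb1-RE than in SAHA-treated cells. A minimum of 2-fold, a stricter call by construction, left 11 members higher and 0 lower under SAHA, 1 lower in Smarcb1-RE cells, and 8 higher and 8 lower between the treated groups; for partners it left 10 and 1, 17 and 6, and 13 and 9. At an adjusted p of 0.01, 9 members were higher in Smarcb1-RE than in SAHA-treated cells and 11 partners lower under SAHA.

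Leaving out 1 library at a time gave 20 to 24 members higher and 4 to 5 lower under SAHA, 17 to 19 and 7 to 8 in Smarcb1-RE cells, and 10 to 14 and 13 to 14 between the treated groups. Partners gave 32 to 33 and 12 to 22, 35 to 37 and 30 to 35, and 25 to 28 and 40 to 46. Smarcb1 ranged from 4.52 to 5.36 in Smarcb1-RE cells, from 0.0399 to 1.14 under SAHA and from 3.84 to 4.83 between them. Slit2 ranged from 1.67 to 3.30 in Smarcb1-RE cells, the highest without control replicate 3.

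Libraries with the same replicate number did not deviate together (correlations of -0.0586 to 0.0382, against -0.0435 to 0.0521 for different numbers), so no pairing by number was seen in the values. Whether libraries of the same number were prepared together is not given in the sources used here. With a replicate block, members counted 23 higher and 5 lower, 18 and 8, and 13 and 14, partners 32 and 17, 37 and 31, and 29 and 40, and Smarcb1 was 0.65, 4.90 and 4.25 in the 3 comparisons. Separate fits gave no Smarcb1 value under SAHA, nor did the minimum of 10 counts in any comparison. The 36 untested members had too few counts for a test.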
